A study of Mus musculus with 30 samples.

Results

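The Hoxa genes form one of the HOX clusters, homeodomain transcription factors that lie side by side in the order of their expression along the body axis. The 9 genes described here are Hoxa2, Hoxa3, Hoxa4, Hoxa5, Hoxa6, Hoxa7, Hoxa9, Hoxa10 and Hoxa11, chosen by name as cluster members and matched by gene identifier among the 50686 genes of the deposited count files. They were measured by mRNA sequencing in 18 libraries of 2 mouse haematopoietic stem and progenitor cell lines, HPCLSK and HPC7. Each line carried a retrovirus with STAT3 Y640F, with STAT3 or with neither, the empty vector, which the labels name after its dsRed marker (3 libraries per group). STAT3 carries signals from cytokine receptors to the nucleus, and Y640F is a substitution known from lymphoid leukaemia that raises its activity. Stem cell factor was in the medium of both lines, and the plates for HPCLSK had an agarose coat. The labels give strain C57BL/6N for HPCLSK and 129SV for HPC7. The file headers name a different sequencing run for each line, so line, strain and run cannot be told apart. The series text calls the 3 libraries of a group technical replicates, so every p-value measures the spread between libraries and not between separate cultures.

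In blood formation, HOXA proteins of the cluster's middle and posterior part are most abundant in stem and early progenitor cells and decline as cells mature. HOXA9 works with MEIS1 and PBX proteins on DNA, and its forced expression blocks myeloid differentiation in mouse marrow. The cluster is kept active by Trithorax-type complexes around KMT2A and is silenced by Polycomb complexes. The anterior genes Hoxa2 and Hoxa3 are best known from hindbrain and neck development.

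The cluster lies on the minus strand of chromosome 6 (GRCm38), with the 9 genes between bases 52162417 and 52245810, a span of 83394 bases. Hoxa2 is at the low-coordinate end and Hoxa11 at the other. Hoxa2 and Hoxa3 share exonic sequence on the same strand with the read-through gene Gm28308, which leaves 85.0% and 92.0% of their exonic bases unshared. Hoxa9 overlaps the microRNA gene Mir196b and keeps 98.5% unshared, and the other 6 genes share none. Counting used strand, per the file headers.

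RefSeq start-site windows in GRCm38.p6 matched 8 of the 9 genes. The windows of Hoxa9, Hoxa5 and Hoxa10 are shown because these genes were called against empty vector with at least 1 construct in HPCLSK cells. In HPC7 cells Hoxa5 was called too, as were Hoxa3, Hoxa6 and Hoxa7, whose windows are not shown. Each window shown is the 250 bases before the start, on the minus strand, in lower case. Matches to CCAAT (or ATTGG) and to TATAAA (or TTTATA) are in capitals. None overlaps a listed exon; the Hoxa9 window and the first Hoxa10 window lie inside the annotated span of their gene, in intronic sequence.
Hoxa9, chr6:52227371-52227620: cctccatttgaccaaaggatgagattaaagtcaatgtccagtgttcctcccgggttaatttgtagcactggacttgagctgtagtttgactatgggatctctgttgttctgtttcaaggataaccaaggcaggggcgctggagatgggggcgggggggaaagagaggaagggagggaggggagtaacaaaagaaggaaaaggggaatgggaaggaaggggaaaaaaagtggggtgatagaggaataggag
Hoxa5, chr6:52204588-52204837: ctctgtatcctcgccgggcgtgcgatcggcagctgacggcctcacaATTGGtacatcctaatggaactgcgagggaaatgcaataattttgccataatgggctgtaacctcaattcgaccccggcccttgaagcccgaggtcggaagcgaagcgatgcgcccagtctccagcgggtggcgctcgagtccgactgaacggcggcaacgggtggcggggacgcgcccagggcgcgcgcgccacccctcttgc
Hoxa10, chr6:52234940-52235189: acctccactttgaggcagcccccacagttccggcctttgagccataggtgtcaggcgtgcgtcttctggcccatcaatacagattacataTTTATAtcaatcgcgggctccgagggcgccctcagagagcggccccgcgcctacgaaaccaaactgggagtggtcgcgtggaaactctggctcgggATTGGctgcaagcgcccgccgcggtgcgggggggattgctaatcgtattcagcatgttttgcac
Hoxa10, chr6:52240855-52241104: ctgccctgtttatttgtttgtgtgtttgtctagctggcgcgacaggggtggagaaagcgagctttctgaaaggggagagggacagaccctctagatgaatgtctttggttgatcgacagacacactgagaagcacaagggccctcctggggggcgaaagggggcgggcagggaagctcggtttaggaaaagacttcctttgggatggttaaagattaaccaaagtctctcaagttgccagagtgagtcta

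The palindromic STAT element TTCNNNGAA, which reads the same on both strands, was found in 0 of the 9 windows of the 8 genes, and in 7.02% of all 32851 RefSeq windows of that length. CCAAT or its reverse complement was present in 33.85% of all windows, and TATAAA or its reverse in 12.37%. The Hoxa5 window held 1 CCAAT match, 204 bases before the start. The first Hoxa10 window held a TATAAA match at 160 bases and a CCAAT match at 64 bases, which do not overlap. The Hoxa9 window and the other Hoxa10 window held neither. These matches describe the letters of the windows only, and no binding data were analysed here.

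Library depth ran from 9537258 to 38556669 assigned reads. The check on the vectors was the Stat3 count, which cannot separate a retroviral copy from the cell's own gene. Stat3 averaged 1900 ± 45 CPM (reads of a gene scaled to a common library size) with Y640F, 599 ± 42.2 with STAT3 and 355 ± 12.4 with empty vector in HPCLSK cells (SD, n = 3 each). In HPC7 cells it averaged 669 ± 20.9 with Y640F, 996 ± 17.1 with STAT3 and 225 ± 10.1 with empty vector, so that the construct with more Stat3 differed between the lines. All 12 stem and progenitor marker genes had reads in every group, whereas 9 of 11 stromal and endothelial markers were at 0 in the empty vector group of each line, 8 of them in both. The exception in both was Pdgfrb, at 172 ± 22.4 CPM in HPCLSK and 74.5 ± 5.89 CPM in HPC7; Col1a1 in HPCLSK (0.0446 CPM) and Cdh5 in HPC7 (0.378 CPM) were near 0. Among libraries of 1 group, the empty vector libraries of HPC7 and the libraries numbered 1 of HPCLSK Y640F and HPCLSK empty vector stood furthest from their fellows. In such bulk RNA, fewer cells of a type and less RNA per cell cannot be told apart.

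The 2 lines differed in how much of the cluster they used. HPCLSK cells with empty vector made mostly Hoxa9, with Hoxa7 next, and HPC7 cells made low amounts of Hoxa5 and Hoxa6 with no read of Hoxa9 or Hoxa10. The summed CPM of the 9 genes averaged 176 ± 14.2 in HPCLSK and 5.33 ± 1.24 in HPC7 with empty vector (SD, n = 3 each). Hoxa11, the most posterior of the 9, had 0 counts in all 18 libraries. Of the 8 genes tested between the lines, 5 were called higher in HPCLSK and 0 lower (edgeR's quasi-likelihood test, adjusted p under 0.05 and at least 2-fold). Over all 13891 genes tested, 22.8% were called higher and 13.6% lower. As the 5 passed the filter on low counts through their HPCLSK reads, their count is not read as support.

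Hoxa9, the member most closely tied to leukaemic self-renewal, had 156, 139 and 138 CPM in the empty vector libraries of HPCLSK and 0 in those of HPC7. The 7588 reads against 0 put it at least 3980-fold higher in HPCLSK, taking 3 counts over the HPC7 group as the floor. Hoxa10, its posterior neighbour, had 30 reads against 0, at least 15.7-fold higher. Hoxa7 averaged 21.7 ± 3.86 CPM in HPCLSK and 0.439 ± 0.0959 in HPC7, a log2 difference of 5.63 ± 0.26 (SE; edgeR, adjusted p = 2.1e-12).

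The lines lay closer together at Hoxa2, Hoxa3, Hoxa4, Hoxa5 and Hoxa6 than at Hoxa7, Hoxa9 and Hoxa10. Hoxa4 was higher in HPCLSK by 2.38 ± 0.54 on the log2 scale (edgeR, adjusted p = 0.00067) and Hoxa2 by 1.21 ± 0.42 (edgeR, adjusted p = 0.015). The Hoxa2 call was lost when HPC7 empty vector library 2 or HPCLSK empty vector library 3 was left out (edgeR, log2 difference 1.06 and 0.93, adjusted p = 0.051 and 0.099). Hoxa5 differed by 0.91 ± 0.23 and Hoxa3 by 0.92 ± 0.33, under the fold minimum. Hoxa5 passed it without HPC7 empty vector library 1 (1.04), and Hoxa3 without HPC7 library 3 (1.25) or HPCLSK library 3 (1.03). Hoxa6 averaged 1.26 ± 0.201 CPM in HPCLSK and 1.09 ± 0.213 in HPC7, and its log2 difference was 0.19 ± 0.3 (edgeR, adjusted p = 0.57).

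Per kilobase of exon, the empty vector order in HPCLSK cells was Hoxa9 at 25.8 ± 1.83 CPM per kb, Hoxa7 at 7.55 ± 1.34, Hoxa5 at 2.69 ± 0.154 and Hoxa6 at 1.45 ± 0.23, and these neighbours in the order lay further apart than their SDs. Below them Hoxa4, Hoxa2, Hoxa3 and Hoxa10 followed at 0.492, 0.361, 0.244 and 0.175 CPM per kb, where Hoxa4 and Hoxa2, and Hoxa2 and Hoxa3, overlapped within their SDs. In HPC7 cells with empty vector, Hoxa5 and Hoxa6 led at 1.42 ± 0.33 and 1.25 ± 0.244 CPM per kb and overlapped within their SDs. Hoxa2, Hoxa7, Hoxa3 and Hoxa4 followed between 0.153 and 0.081 CPM per kb. With Y640F or STAT3 in HPCLSK, Hoxa7 led. It stood at 5.57 ± 1.6 CPM per kb with Y640F and 4.8 ± 0.246 with STAT3, and Hoxa9 at 3.59 ± 1.24 with Y640F, within the SDs of Hoxa7, and 2.66 ± 0.152 with STAT3.

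**Figure D1:**
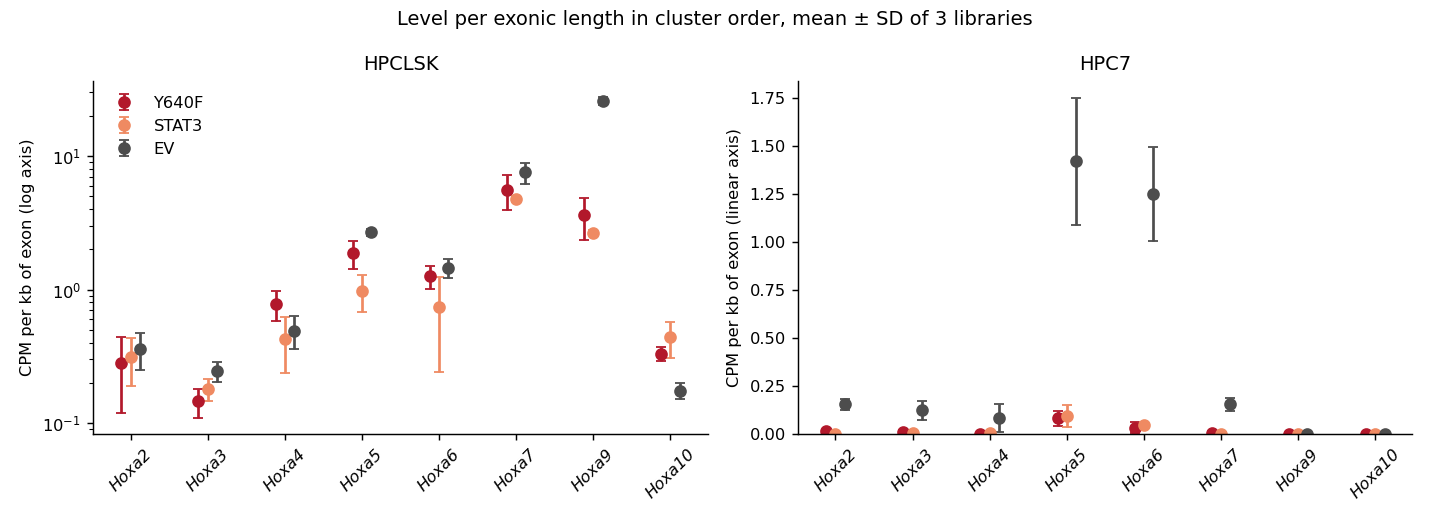
Mean level per exonic length (CPM per kb, bars SD of 3 libraries) of each gene in cluster order, for Y640F, STAT3 and empty vector (EV), with a log axis for HPCLSK and a linear axis for HPC7; Hoxa11, at 0 throughout, is left out. Hoxa9 at 25.8 leads the HPCLSK empty vector cells, and Hoxa5 at 1.42 leads the HPC7 ones.

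Hoxa9 was the gene that fell with both constructs in HPCLSK cells, to roughly the level of Hoxa7. It had 13.9, 18.7 and 27.6 CPM with Y640F and 14.2, 15.8 and 14.6 CPM with STAT3, against 156, 139 and 138 CPM with empty vector. Neither construct's libraries overlapped those of the empty vector. With Y640F Hoxa9 fell by 2.82 ± 0.18 on the log2 scale (edgeR, adjusted p = 6.7e-07), and its log2 fold change lay between -3.13 and -2.63 with single libraries left out. With STAT3 it fell by 3.26 ± 0.19 (edgeR, adjusted p = 5.6e-06), and lay between -3.32 and -3.21 with single libraries left out.

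**Figure D2:**
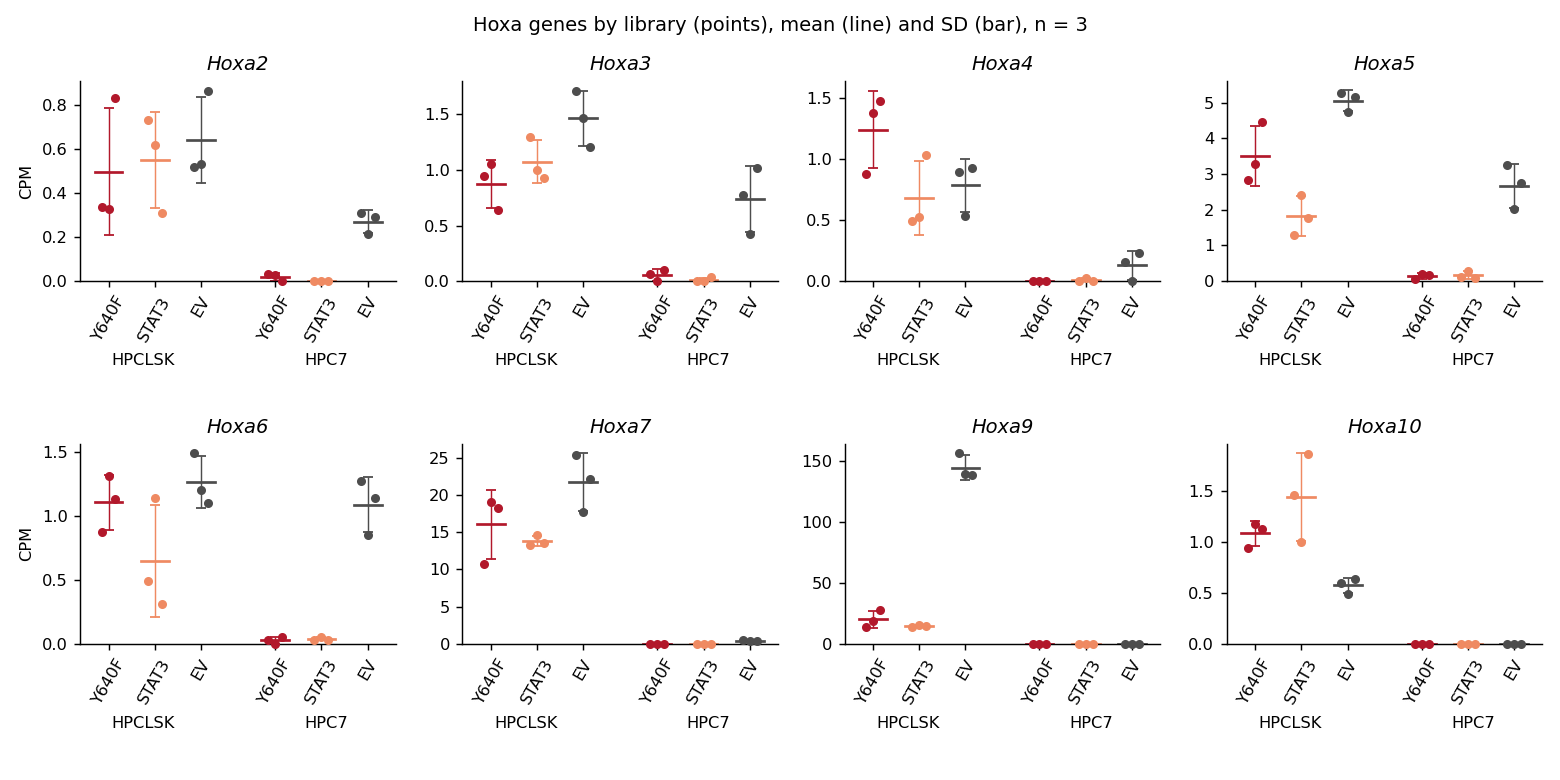
CPM of each gene in every library (points) with the mean (line) and SD (bar) of 3 libraries, in HPCLSK and HPC7 cells with Y640F, STAT3 or empty vector (EV), each panel on its own linear axis from 0. Hoxa9 in HPCLSK stands between 138 and 156 with empty vector and at 27.6 or below with either construct, and the HPC7 libraries with Y640F or STAT3 lie near 0 in every panel.

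Counted over the 8 genes tested in HPCLSK cells, Y640F left 0 called higher and 1 called lower, against 9.62% and 6.57% of all 12552 genes tested, and 7 not called; at an unadjusted p under 0.05 edgeR had 4 of the 8 in either direction, and DESeq2 called 1. STAT3 left 1 called higher and 2 called lower, against 2.8% and 1.79% of all genes. The median log2 fold change of the 8 was -0.34 with Y640F and -0.53 with STAT3, with -0.01 and 0 over all genes tested. The 2 comparisons share the empty vector libraries.

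Hoxa5, a regulator of myeloid against erythroid output in human progenitors, had 2.83, 3.27 and 4.45 CPM with Y640F, 1.3, 2.42 and 1.76 with STAT3, and 5.28, 4.73 and 5.15 with empty vector in HPCLSK cells. No library of either construct reached the empty vector range. With STAT3 it fell by 1.4 ± 0.24 on the log2 scale (edgeR, adjusted p = 0.0031), and with Y640F its log2 fold change was -0.49 ± 0.22 (edgeR, adjusted p = 0.072). Directly compared, Y640F stood above STAT3 by 0.91 ± 0.25 (edgeR, adjusted p = 0.01), under the fold minimum.

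Hoxa10, which like Hoxa9 expands early progenitors when overexpressed in mice, went the other way at a low level. It had 0.944, 1.18 and 1.13 CPM with Y640F and 1.46, 0.999 and 1.86 CPM with STAT3, against 0.595, 0.491 and 0.636 CPM with empty vector in HPCLSK cells, with no overlap. These rest on 55, 57 and 30 reads per group. With STAT3 it rose by 1.27 ± 0.3 (edgeR, adjusted p = 0.019). That call was lost in 4 of the 6 fits that left out 1 library, those without empty vector library 2 or 3 or STAT3 library 1 or 3, where the log2 fold change was 1.07 to 1.36 and the edgeR adjusted p 0.05 to 0.079. With Y640F its log2 fold change was 0.94 ± 0.3 (edgeR, adjusted p = 0.022), under the fold minimum, and it passed that minimum without empty vector library 3 (1.02).

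The other 5 genes tested in HPCLSK cells passed the test in neither comparison with empty vector. Hoxa7, a mid-cluster gene that often moves with Hoxa9 in leukaemia, had 10.7, 19.1 and 18.3 CPM with Y640F, 13.3, 14.6 and 13.5 with STAT3, and 25.4, 17.7 and 22.1 with empty vector. The STAT3 libraries all lay below the empty vector ones, while the Y640F libraries overlapped them. Its log2 fold change was -0.41 ± 0.19 with Y640F (edgeR, adjusted p = 0.089) and -0.63 ± 0.2 with STAT3 (edgeR, adjusted p = 0.061). Hoxa2, Hoxa3, Hoxa4 and Hoxa6 stayed between 0.499 and 1.47 CPM on average in the 3 groups of this line, with log2 fold changes of -0.75 to 0.72. Hoxa3 with Y640F stood at -0.75 ± 0.27 (edgeR, adjusted p = 0.033), under the fold minimum. Hoxa6 with STAT3 rested on 6, 24 and 3 reads, and its log2 fold change of -0.75 ± 0.38 became -1.59 without STAT3 library 2 (edgeR, adjusted p = 0.034).

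**Figure D3:**
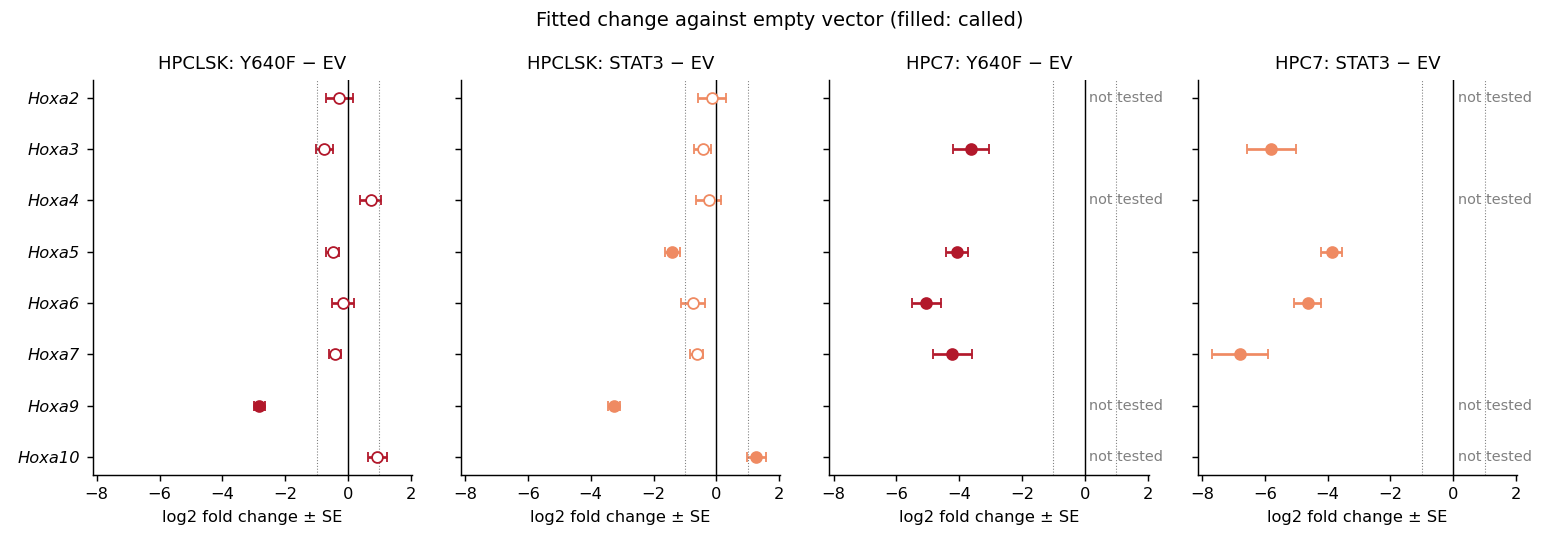
Fitted log2 fold change against empty vector (EV) with its SE for each gene, by line and construct; filled points passed adjusted p under 0.05 and 2-fold, open points did not, dotted lines mark 2-fold, and genes under the low-count filter are marked as not tested. Hoxa9 at -2.82 and -3.26 stands apart in HPCLSK, while all 4 genes tested in HPC7 lie at -3.63 or below; the Hoxa7 point for STAT3 in HPC7 rests on 0 reads against 36 and is no measured fold.

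The makeup of the cluster's reads differed between the HPCLSK groups. The shares below are not corrected for gene length, and Hoxa9 has 5580 exonic bases against 2876 for Hoxa7. The summed CPM of the 9 genes averaged 44.4 ± 12.1 with Y640F, 34.9 ± 2.01 with STAT3 and 176 ± 14.2 with empty vector (SD, n = 3 each). Hoxa9 made up 44.8 ± 4.67% of that sum with Y640F, 42.6 ± 0.0886% with STAT3 and 82.1 ± 1.54% with empty vector. Without Hoxa9 the sums were 24.3 ± 5.89, 20 ± 1.16 and 31.5 ± 4.63 CPM in the same order of groups. No test was made on these sums.

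**Figure D4:**
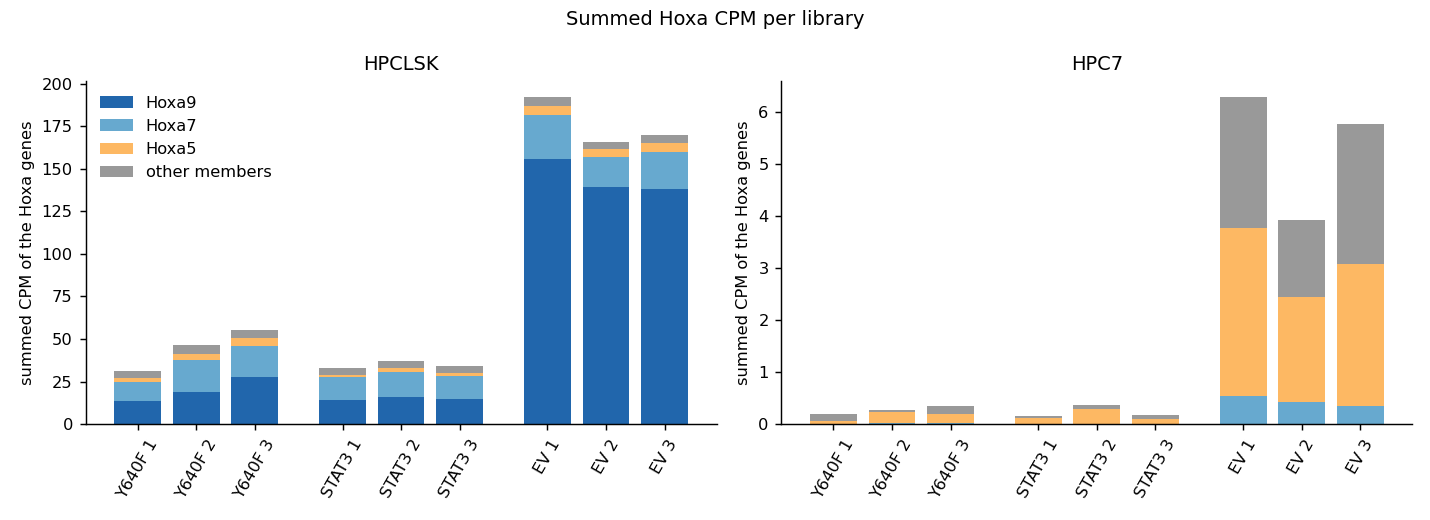
Summed CPM of the Hoxa genes in each library, stacked by gene, on separate linear axes for HPCLSK and HPC7, with the libraries numbered within Y640F, STAT3 and empty vector (EV). The HPCLSK empty vector bars are mostly Hoxa9, which makes up 82.1% on average, and the HPC7 bars with Y640F or STAT3 are at most 0.376 CPM high.

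Y640F and STAT3 could not be separated at Hoxa9 in HPCLSK cells, where their log2 difference was 0.45 ± 0.2 (edgeR, adjusted p = 0.082). Across the 8 genes, 0 were called between the constructs by edgeR or DESeq2 and 3 had an unadjusted p under 0.05, while 8.11% of all genes were called higher and 6.09% lower. Hoxa4 had 0.876, 1.37 and 1.47 CPM with Y640F and 0.488, 0.523 and 1.03 CPM with STAT3, a log2 difference of 0.97 ± 0.37 (edgeR, adjusted p = 0.045) under the fold minimum. Leaving out the library numbered 1 of Y640F brought Hoxa4 to 1.14 and Hoxa5 to 1.01, past that minimum. Hoxa4 also passed it without STAT3 library 3 (1.27), and Hoxa5 (1.24) and Hoxa6 (1.42) without STAT3 library 2.

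Marker levels moved in these HPCLSK groups as well. The 5 monocyte and macrophage markers summed to 727 to 1410 CPM with Y640F, 77.8 to 192 CPM with STAT3 and 99.7 to 139 CPM with empty vector. Of them 4 were called higher with Y640F and 0 with STAT3, and Ly86 was at 0 with Y640F. The 8 granulocyte markers summed to 8910 to 12500 CPM with Y640F, 12600 to 18000 CPM with STAT3 and 7790 to 11900 CPM with empty vector, with 2 called higher and 2 lower with Y640F and 5 higher with STAT3. The 4 megakaryocyte markers summed to 491 to 726 CPM with Y640F, 792 to 902 CPM with STAT3 and 1180 to 1690 CPM with empty vector, with 1 called higher and 3 lower with Y640F. The stem and progenitor markers summed to 4510 to 4880, 6100 to 6320 and 6770 to 7090 CPM in the same order of groups. Of these 12 markers, 1 was called higher and 2 lower with Y640F. With STAT3 0 were called by edgeR or DESeq2, and 6 had an unadjusted p under 0.05. Cd34 averaged 983 CPM with Y640F against 2340 with empty vector, whereas Spi1 averaged 426 against 171. The part of these shifts in the Hoxa9 result was not tested.

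In HPC7 cells both constructs left the low Hoxa expression close to nothing. The summed CPM of the 9 genes averaged 0.272 ± 0.0769 with Y640F, 0.232 ± 0.125 with STAT3 and 5.33 ± 1.24 with empty vector (SD, n = 3 each), from 29, 24 and 453 reads. The low-count filter passed 4 of the 9 genes, Hoxa3, Hoxa5, Hoxa6 and Hoxa7, and all 4 were called lower with Y640F and with STAT3. Over all 12683 genes tested, 4.54% were called higher and 3.64% lower with Y640F, and 1.81% higher and 5.41% lower with STAT3. As these 4 passed the filter through their empty vector reads, their count is not read as support.

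Hoxa5 had 0.0655, 0.209 and 0.175 CPM with Y640F and 0.122, 0.296 and 0.101 CPM with STAT3, against 3.24, 2.01 and 2.74 CPM with empty vector. The lowest empty vector library stood well above every library of the constructs. Hoxa5 fell by 4.07 ± 0.35 on the log2 scale with Y640F (edgeR, adjusted p = 3.7e-07), and fell by 3.87 ± 0.34 with STAT3 (edgeR, adjusted p = 7.5e-07).

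Hoxa6, its neighbour of the same central group, had 3 reads with Y640F and 4 with STAT3, against 92 with empty vector. It averaged 0.0276 ± 0.0254 CPM with Y640F, 0.0393 ± 0.0126 with STAT3 and 1.09 ± 0.213 with empty vector, and no library overlapped. The fitted change was -5.05 ± 0.46 with Y640F and -4.64 ± 0.44 with STAT3 (edgeR, adjusted p = 6.6e-07 and 1.3e-06). For the 3 Y640F reads the ratio of empty vector over Y640F was 38.1, with an exact counting interval of 12.6 to 188.

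Hoxa3 had 0.0655, 0 and 0.1 CPM with Y640F and 0, 0 and 0.0336 CPM with STAT3, against 0.772, 0.428 and 1.02 CPM with empty vector. It fell by 3.63 ± 0.57 on the log2 scale with Y640F (edgeR, adjusted p = 1e-04). With STAT3 it was called lower (edgeR, adjusted p = 3.6e-05) on a single read, and the ratio of empty vector over STAT3 was 77.5, with a counting interval of 13.4 to 3110. Hoxa7 had 2 reads with Y640F and 0 with STAT3, against 36 with empty vector. It was called lower with Y640F (edgeR, adjusted p = 0.00011), where the ratio of empty vector over Y640F was 22.4 with an interval of 5.76 to 192. With STAT3 it was called lower (edgeR, adjusted p = 5.5e-05) and was at least 14.3-fold lower, taking 3 counts over the group as the floor.

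The 5 genes under the filter in HPC7 cells were not tested. Hoxa2 had 2 reads with Y640F and 0 with STAT3, against 23 with empty vector, which makes it at least 9.15-fold lower with STAT3. For Y640F the ratio of empty vector over Y640F was 14.3, with an interval of 3.53 to 125. Hoxa4 had 0 reads with Y640F and 1 with STAT3, against 12 with empty vector, of which library 2 held none. Hoxa9, Hoxa10 and Hoxa11 had 0 reads in all 9 HPC7 libraries.

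No difference between the constructs was detectable at this depth in HPC7 cells. Of the 4 genes tested 0 were called by edgeR or DESeq2, and 0 had an unadjusted p under 0.05, against 6.17% of all genes called higher and 1.73% lower. Hoxa5 had 16 reads with Y640F and 18 with STAT3, and their ratio of 0.853 had a counting interval of 0.407 to 1.77. In the same line the 8 granulocyte markers summed to 127 to 148 CPM with Y640F, 263 to 287 CPM with STAT3 and 332 to 670 CPM with empty vector, with 4 of the 5 tested called lower and 0 higher against empty vector for each construct, and with Camp and Ctsg at 0 with either and Elane at 0 with STAT3. The 5 erythroid markers summed to 24.5 to 30.2 CPM with Y640F, 9.78 to 13.3 CPM with STAT3 and 12.9 to 14.3 CPM with empty vector, with 3 of the 4 tested called higher with Y640F and 0 called with STAT3 by edgeR or DESeq2 (0 at an unadjusted p under 0.05). The 4 megakaryocyte markers summed to 338 to 352 CPM with Y640F, 620 to 646 CPM with STAT3 and 320 to 378 CPM with empty vector, with 1 called higher with Y640F and 2 with STAT3. The part of these shifts in the Hoxa result was not tested.

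The responses of the 2 lines differed in the fit over all 18 libraries, which tests the difference itself. For Y640F, 6 of the 6 genes that could be estimated were called with a less negative response in HPCLSK than in HPC7, against 7.74% of all genes called in that direction and 7.25% in the other. For STAT3 it was 5 of 6, all but Hoxa4, against 6.16% in that direction and 2.09% in the other. These genes passed the low-count filter through groups where they are high, so neither count is read as support. Hoxa9 and Hoxa10 could not be compared, since HPC7 had no read of them. Hoxa5 shows the size of the gap, 3.58 ± 0.44 on the log2 scale for Y640F (edgeR, adjusted p = 2.2e-06) and 2.46 ± 0.47 for STAT3 (edgeR, adjusted p = 0.00045). With either construct Hoxa3, Hoxa5 and Hoxa6 each averaged 0.646 CPM or more in HPCLSK cells and 0.173 CPM or less in HPC7 cells.

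At the anterior border of the cluster, noncoding transcripts of the opposite strand were counted at low levels. Hotairm1, a noncoding RNA studied in myeloid cells, had 47 reads with Y640F, 19 with STAT3 and 6 with empty vector in HPCLSK cells. The opposite-strand gene Gm15050, inside the Hoxa3 span, had 25, 4 and 1 reads in the same groups. Gm27477, between Hotairm1 and Hoxa2, had 21, 9 and 2. These 3 and Hoxaas3 were under the low-count filter of that line and were not tested. Hoxaas3, antisense to Hoxa3 and Hoxa7, had 12, 15 and 27 reads in HPCLSK cells, and in HPC7 cells 0 with Y640F, 0 with STAT3 and 12 with empty vector. Of the 30 other genes listed in and beside the cluster, 21 had 0 reads in all 18 libraries, Hoxa13 among them.

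Few of the tested genes around the cluster were called against empty vector. Within 1 Mb of it 33 genes are listed, of which 6 were tested in HPCLSK cells and 7 in HPC7 cells. In HPCLSK edgeR called 0 of the 6 with either construct. In HPC7 it called 1 of the 7, Snx10, an endosomal sorting nexin, which was lower with STAT3 (log2 fold change -1.66 ± 0.06, edgeR, adjusted p = 3.1e-10) and at -0.19 ± 0.06 with Y640F. Over all genes tested in HPCLSK, 9.62% were called higher and 6.57% lower with Y640F, and 2.8% and 1.79% with STAT3. In HPC7 the shares were 4.54% and 3.64% with Y640F, and 1.81% and 5.41% with STAT3. With 6 or 7 genes tested, the counts of neighbours cannot be told apart from these shares. The median log2 fold change of the neighbours was -0.03 with Y640F and -0.08 with STAT3 in HPCLSK, and -0.26 and -0.1 in HPC7.

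**Figure D5:**
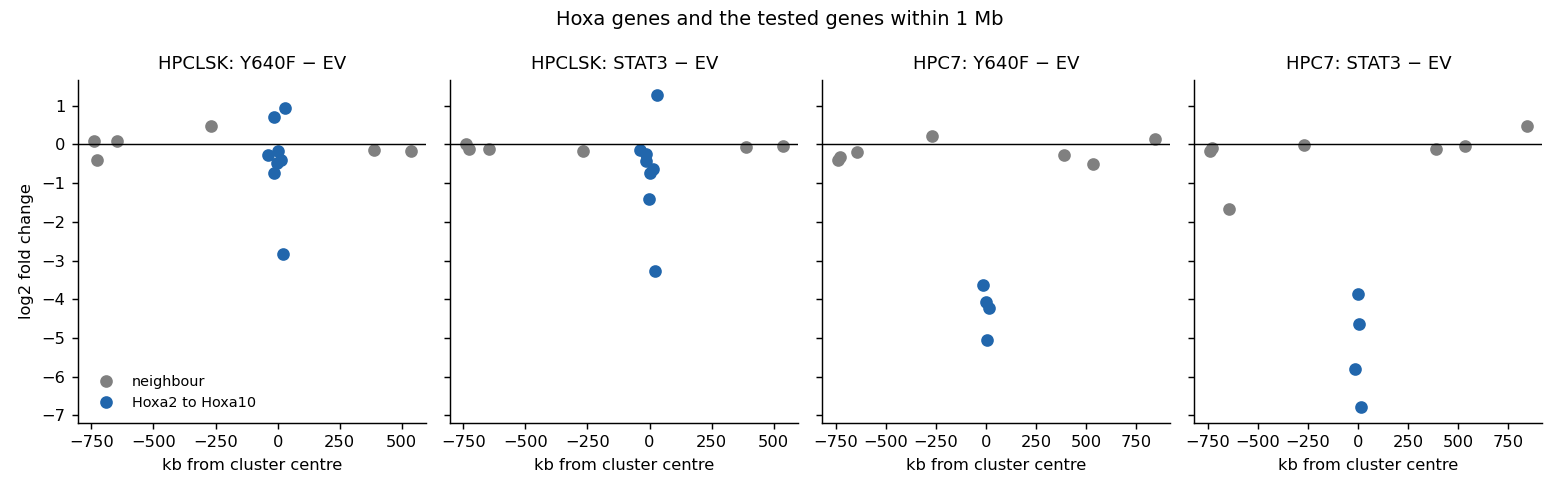
Fitted log2 fold change against empty vector (EV) of the tested Hoxa genes (blue) and of the tested genes outside the cluster within 1 Mb (grey), by distance in kb from the centre of the cluster. The neighbours lie near 0, apart from Snx10 at -1.66 with STAT3 in HPC7, while Hoxa9 in HPCLSK and the 4 genes in HPC7 lie below them.

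HOXA9 acts with cofactors of the TALE class, of which Meis1 and Pbx3 were not called within a line, while Meis3 and Pbx4 were called in 1 line each. Meis1, the partner that stabilises HOXA9 on DNA, averaged 68.1 ± 11.8 CPM with Y640F, 99.9 ± 6.63 with STAT3 and 90.1 ± 9.11 with empty vector in HPCLSK cells, and 133 ± 4.54, 147 ± 3.07 and 133 ± 1.22 CPM in the same order in HPC7 cells. Pbx3, another partner, averaged 10.7 ± 1.5, 8.09 ± 1.51 and 9.86 ± 0.455 CPM in HPCLSK cells and 29 ± 0.804, 20.2 ± 0.824 and 17.9 ± 0.888 CPM in HPC7 cells in the same order. Of the 9 cofactors, 6 were tested in HPCLSK, where Pbx4 was called lower with Y640F (log2 fold change -1.1 ± 0.17) and 0 were called with STAT3 by edgeR or DESeq2 (2 at an unadjusted p under 0.05). In HPC7, 5 were tested and Meis3 was called in opposite directions, at 1.36 ± 0.18 with Y640F and -1.89 ± 0.26 with STAT3.

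Among 21 activators of the cluster, including Kmt2a, Men1 and Dot1l of the Trithorax side, 18 were tested in each line. Against empty vector 0 were called in any of the 4 comparisons by edgeR or DESeq2, and the medians lay between -0.09 and 0.04. An unadjusted edgeR p under 0.05 was reached by 7 to 14 of the 18. Even an adjusted edgeR p under 0.05 alone was reached by 7349 (Y640F) and 1766 (STAT3) of all 12552 genes in HPCLSK. In HPC7 it was reached by 7263 and 6165 of all 12683. Of the 25 Polycomb genes, all tested, Phf19 was called higher with Y640F in HPC7 by 1.75 ± 0.05, at 72.5 CPM against 21.9. PHF19 is an accessory factor that brings the methylating Polycomb complex to chromatin. Phc1, a subunit of the compacting Polycomb complex, was called higher in HPCLSK with Y640F by 1.76 ± 0.3 and with STAT3 by 1.54 ± 0.3, at 7.12 and 6.19 CPM against 2.22. The other Polycomb genes were not called against empty vector. Over all genes tested in HPCLSK, 9.62% were called higher and 6.57% lower with Y640F, and 2.8% and 1.79% with STAT3. In HPC7 the shares were 4.54% and 3.64% with Y640F, and 1.81% and 5.41% with STAT3. At most 1 of the 25 Polycomb genes was called per comparison, and neither list's count is read as a response.

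Of 18 genes listed as targets of HOXA9 or MEIS1 in haematopoietic cells, 3 of which (Cd34, Lmo2, Myb) are also among the stem and progenitor markers, 17 were tested in HPCLSK, where 3 were called higher and 5 lower with Y640F, against 9.62% and 6.57% of all genes, and 2 higher and 3 lower with STAT3, against 2.8% and 1.79%. Flt3, a cytokine receptor of early progenitors that HOXA9 activates with MEIS1, averaged 25.8 CPM with Y640F and 26.1 with STAT3, against 56.4 with empty vector (log2 fold change -1.12 ± 0.13 in each, edgeR, adjusted p = 3.9e-05 and 0.00035). The survival gene Bcl2 was lower with Y640F (log2 fold change -1.55 ± 0.1). Id2 was higher with Y640F (log2 fold change 3.77 ± 0.22) and with STAT3 (1.98 ± 0.24). Ifitm1, an interferon-induced membrane protein gene, was higher with Y640F by 4.01 ± 0.14. In HPC7, where Hoxa9 was at 0 throughout, 14 were tested and 2 were called higher and 3 lower with Y640F, against 4.54% and 3.64% of all genes, and 0 higher and 3 lower with STAT3, against 1.81% and 5.41%. There the progenitor antigen gene Cd34 averaged 193 CPM with Y640F and 41.2 with STAT3, against 609 with empty vector. Flt3 was called lower in HPC7 as well, at 0.718 CPM with Y640F and 0.358 with STAT3, against 2.16 with empty vector. Its log2 fold changes there were -1.55 ± 0.23 and -2.57 ± 0.26. The part of Hoxa9 in the changes of the listed genes was not tested in either line.

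The genes whose levels followed Hoxa9 most closely were sought by the Pearson correlation of log2 CPM over the 18 libraries after each line's mean was subtracted, among 11852 genes. They were H2-Ab1 (r = 0.988), Asxl3 (0.98), Selenbp1 (0.975), Trp53i11 (0.975) and Sema3a (0.972). H2-Ab1, which encodes a chain of an MHC class II molecule, averaged 0.285 ± 0.0969 CPM with Y640F, 0.296 ± 0.046 with STAT3 and 7.72 ± 0.272 with empty vector in HPCLSK cells. Selenbp1, which encodes a selenium-binding protein, averaged 14.3 ± 2.44, 14.5 ± 1.38 and 51.2 ± 3.7 CPM in the same groups. Trp53i11 averaged 3.98, 2.48 and 19.7 CPM, Sema3a 0.198, 0.141 and 1.65 CPM, and Asxl3 was at 0 with both constructs and at 1.11 CPM with empty vector. Because Hoxa9 is at 0 in HPC7, its variation comes from the 9 HPCLSK libraries, which share their empty vector group and line. Variation of a gene within HPC7 lowered its r, so genes silent or flat there were favoured. In HPC7 Selenbp1 averaged 12.1 CPM with Y640F, 13.8 with STAT3 and 11.8 with empty vector. H2-Ab1 was at 0.00996 CPM or less there, and Asxl3, Trp53i11 and Sema3a were at 0.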

How the data were processed

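The 18 libraries (3 per group, 50-base single-end reads) were analysed from raw counts per gene, deposited by the authors as featureCounts 1.5.1 output with reverse-stranded counting, per the file headers. STAR and Trimmomatic and the build GRCm38 are given in the submitters' processing notes, and the GENCODE M13 annotation in the series text and file headers. The series text and the labels' protocols name different library kits. The 12 chromatin immunoprecipitation and input samples were not analysed here.

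Counts were tested with edgeR 4.0.16 (R 4.3.3): TMM scaling, filterByExpr, quasi-likelihood test and Benjamini-Hochberg adjustment over all genes tested (9 libraries of a line, or all 18 between lines). A gene was called at adjusted p under 0.05 and at least 2-fold. Printed CPM use TMM over all 18 libraries. Floors are 3 counts over a group, and intervals are exact 95% binomial intervals, both covering counting error only. The members and gene lists were chosen with earlier results of these data known. The genes named are the 9 members, Stat3, Meis1 and Pbx3, called genes of the locus and its neighbours, up to 4 called genes of a list by size of change, and the 5 genes most like Hoxa9; unlisted locus genes with 10 or more reads, and the CCAAT and TATAAA motifs, were chosen after the values were seen. Some genes that this rule names are not reported here. Alternatives were DESeq2 1.42.0, other scalings, filters and thresholds, a replicate block and single libraries left out. The scripts were tested on simulated data.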

Additional observations from a re-analysis of the deposited data

Results flagged for a closer look

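The Hoxa response to the constructs differed between the lines by a test of the difference itself, in the fit over all 18 libraries. Values are the log2 fold change against empty vector in HPCLSK minus that in HPC7, with SE, and all are positive. For Y640F the difference was 3.23 ± 0.86 for Hoxa2, 2.86 ± 0.66 for Hoxa3, 5.54 ± 1.35 for Hoxa4, 3.58 ± 0.44 for Hoxa5, 4.84 ± 0.65 for Hoxa6 and 3.74 ± 0.84 for Hoxa7, with edgeR adjusted p of 2.2e-06 to 0.0049. For STAT3 it was 5.6 ± 1.14 for Hoxa2, 5.22 ± 0.85 for Hoxa3, 2.46 ± 0.47 for Hoxa5, 3.85 ± 0.66 for Hoxa6 and 5.76 ± 1.18 for Hoxa7, with edgeR adjusted p of 1e-04 to 0.0012. Hoxa4 with STAT3 was not called (3.02 ± 1.19, edgeR adjusted p = 0.067), and was called without HPC7 empty vector library 2 (3.49, adjusted p = 0.016). Fitted values for Hoxa2 and Hoxa7 with STAT3 and for Hoxa4 with Y640F rest on HPC7 groups with 0 reads, so they depend on the fit and are no measured fold. Others rest on few HPC7 reads: 1 for Hoxa3 with STAT3, 2 each for Hoxa2 and Hoxa7 with Y640F, and 3 and 4 for Hoxa6. In a test against 2-fold (glmTreat) the Hoxa2 difference for Y640F was not called (adjusted p = 0.06).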

How the results depend on the processing

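Counts of Hoxa genes called stayed within 1.5 times of the main count under median-ratio size factors, library totals alone, DESeq2, no filter on low counts, a replicate block and a joint fit of all 18 libraries. Requiring 1 CPM in 3 libraries left 1 gene called lower in HPC7 with Y640F and 1 with STAT3 in place of 4, because fewer members were tested. Adjusted p alone gave 1 higher and 2 lower for Y640F in HPCLSK, and 2 higher for Y640F against STAT3. A test against 2-fold (glmTreat) left 0 higher and 1 lower for STAT3 in HPCLSK. Without the libraries numbered 1 of HPCLSK Y640F and HPCLSK empty vector, 1 gene was called higher with Y640F and 2 against STAT3.

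With single libraries left out, the counts in HPC7 stayed at 4 lower against empty vector. In HPCLSK 0 to 1 were higher and 1 lower with Y640F, 0 to 1 higher and 2 to 3 lower with STAT3, and 0 to 2 higher for Y640F against STAT3. Between lines 4 to 6 were higher with empty vector, and for the responses 6 (Y640F) and 5 to 6 (STAT3). Direction reversed for no called Hoxa gene. Over all genes, adjusted p alone raised the calls (7349 in place of 2032 for Y640F and 1766 in place of 577 for STAT3 in HPCLSK; 7263 in place of 1038 and 6165 in place of 916 in HPC7), and glmTreat lowered them (1201, 213, 487 and 431). Same-numbered libraries did not deviate together (correlations of -0.1 to 0.06 in HPC7 and -0.19 to 0.1 in HPCLSK), so the numbers do not pair them. The replicate block changed no count of Hoxa calls and moved the line difference of Hoxa2 to 0.82 (adjusted p = 0.31) and of Hoxa3 to 1.15 (adjusted p = 0.02). In HPC7 the few reads of the 9 genes, 29 with Y640F and 24 with STAT3, limit what can be compared between the constructs.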

Other observations

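Few genes of the other HOX clusters passed the low-count filter in these cells. Of 10 Hoxb genes 2 were tested in each line. In HPCLSK cells Hoxb4, which expands stem cells when overexpressed in mice, averaged 5.17 CPM with Y640F and 1.35 with STAT3, against 0.289 with empty vector, and rose by 4.16 ± 0.29 and 2.23 ± 0.35 on the log2 scale (edgeR, adjusted p = 1.2e-06 and 0.0019). Hoxb3 averaged 1.52 CPM with Y640F, against 0.0892 with empty vector in HPCLSK, and rose by 4.21 ± 0.58 (edgeR, adjusted p = 0.00012). In HPC7 cells Hoxb3 averaged 0.327 CPM with Y640F and 0.41 with STAT3, against 0.909 with empty vector, and fell by 1.46 ± 0.31 and 1.12 ± 0.3 (edgeR, adjusted p = 0.0012 and 0.0068). Hoxb4, at 7.01 CPM with empty vector in HPC7, was not called there with either construct. The 10 Hoxb genes summed in HPC7 to 8.65 ± 0.352 CPM with Y640F, 8.55 ± 0.401 with STAT3 and 8.04 ± 0.752 with empty vector. Hoxc5, the only Hoxc gene tested there, rose with Y640F in HPC7 by 3.99 ± 0.35 (edgeR, adjusted p = 5.1e-07). In HPCLSK cells no Hoxc or Hoxd gene passed the low-count filter of that line.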
